A study of Mus musculus with 8 samples.

Results

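Ceramide and sphingolipid metabolism was examined in brown adipose tissue (BAT), the heat-producing fat depot, of obese db/db mice and wild-type (WT) mice through 10 genes: Sptlc1, Sptlc2, Cers2, Cers5, Cers6, Degs1, Asah1, Smpd1, Ugcg and Sgpp1. These members were listed by name for their enzymatic roles and were found by Ensembl identifier among the 31053 genes of the count table. They were compared between 4 WT and 4 db/db libraries, each from bulk RNA-seq of BAT at 8 weeks of age. Per the labels all mice were C57BL6/J, and the methods of the study describe males on a normal diet whose tissues were taken after a fast. The db/db animals were of the line B6.BKS(D)-Leprdb/J, which carries a mutation of the leptin receptor gene Lepr in all tissues, and the sources used here disagree on whether the WT animals came from the same supplier, so that an effect of supplier cannot be told apart from genotype if they did not. The study describes 4 mice per genotype for this experiment, and each library was taken as 1 mouse.

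Ceramide is built in the endoplasmic reticulum from serine and palmitoyl-CoA by serine palmitoyltransferase, N-acylated by ceramide synthases and completed by a desaturase. It is then converted to sphingomyelin, glucosylceramide or ceramide phosphate, or is cleaved by ceramidases to sphingosine, whose phosphate is a signaling lipid that is either dephosphorylated or irreversibly broken down. Ceramide species have been linked to insulin resistance and to lower mitochondrial oxidation in fat, and the acyl chain that a ceramide synthase attaches is held to matter for this.

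To show the DNA next to the starts of the members whose 4 db/db values all lay above the 4 WT values, 4 stretches upstream of RefSeq transcription starts (build GRCm38.p6) are given 5′ to 3′ on the strand of the gene. Bases inside annotated exons were left out. Capitals mark every E-box (CACGTG, the core letters of sites bound by basic helix-loop-helix factors), CCAAT box and GC box (GGGCGG), each searched on both strands. Degs1 (chr1:182282225-182282445, minus strand) held 1 E-box, Cers6 (chr2:68861191-68861440, plus strand) held 1 E-box and 1 CCAAT box, Sgpp1 (chr12:75735730-75735979, minus strand) held 1 CCAAT box, and the short stretch of Cers5 (chr15:99772602-99772674, minus strand) held 0 of these motifs.
Degs1: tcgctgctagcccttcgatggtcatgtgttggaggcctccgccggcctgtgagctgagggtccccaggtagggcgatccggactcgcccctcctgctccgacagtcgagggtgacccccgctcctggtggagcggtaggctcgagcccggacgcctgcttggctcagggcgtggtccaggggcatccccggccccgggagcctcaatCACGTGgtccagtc
Cers6: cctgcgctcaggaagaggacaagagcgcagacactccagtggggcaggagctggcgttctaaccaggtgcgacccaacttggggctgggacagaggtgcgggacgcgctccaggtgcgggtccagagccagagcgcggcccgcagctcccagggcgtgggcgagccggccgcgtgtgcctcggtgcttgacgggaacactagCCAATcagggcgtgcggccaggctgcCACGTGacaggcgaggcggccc
Sgpp1: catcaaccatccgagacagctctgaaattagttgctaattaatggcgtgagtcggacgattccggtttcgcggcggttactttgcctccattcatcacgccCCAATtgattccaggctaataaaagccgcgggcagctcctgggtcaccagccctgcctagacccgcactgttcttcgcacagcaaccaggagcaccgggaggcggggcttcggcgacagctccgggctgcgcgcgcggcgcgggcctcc
Cers5: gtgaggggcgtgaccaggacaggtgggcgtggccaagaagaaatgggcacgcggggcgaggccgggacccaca

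RefSeq promoter windows of 300 bases (250 before and 50 after a start) were matched for 9 of the 10 members, in 10 windows. An E-box stood in 3 of these 10 windows, those of Cers2, Cers6 and Degs1, against 7.15% of all 32851 windows. A CCAAT box stood in 6 of the 10 windows against 37.4% of all, and a GC box in 6 of the 10 against 35.7% of all. Among the windows with a GC box was that of Cers5, whose printed stretch above holds none. The E-box was thus present at both members with and members without a difference between the genotypes, and these matches are descriptions of letters only.

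WT libraries held 2374079 to 2615009 counts and db/db libraries 2382722 to 3240074, so that a detection floor of 3 counts stood at 0.902 to 1.33 CPM (counts scaled to a common library size). No read was counted for Lepr in any library (0 counts), and its transcript therefore gives no check of the genotype. The labels name BAT as the tissue and the stromal vascular fraction as the cell type. The summed level of 8 brown adipocyte markers lay between 7287 and 9024 CPM in WT and between 3079 and 5594 CPM in db/db libraries, with Ucp1 and Cidea present in every library and Cpt1b at no more than 1 count, so adipocyte transcripts were present throughout.

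Of the 10 members, 9 passed the filter on low counts, 3 rose in db/db BAT, 0 fell and 6 did not pass the test. The members that rose were Degs1, Cers5 and Sgpp1. Over all 9264 genes tested with edgeR, 27.7% passed an adjusted p of 0.05 in either direction and 15.8% were higher in db/db, beside 33.3% of the 9 members in either count, and with 9 genes this share is given as a description of the list. The median log2 fold change was 0.28 over the 9 members and 0.0066 over all genes tested. Genotypes without overlap were seen for 3 of the 9 members tested and for Cers6, which was not tested, where 28.1% of all genes tested had none in either direction and 15.3% lay above WT in every db/db library. The plot of the members by library shows all values.

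**Figure D1:**
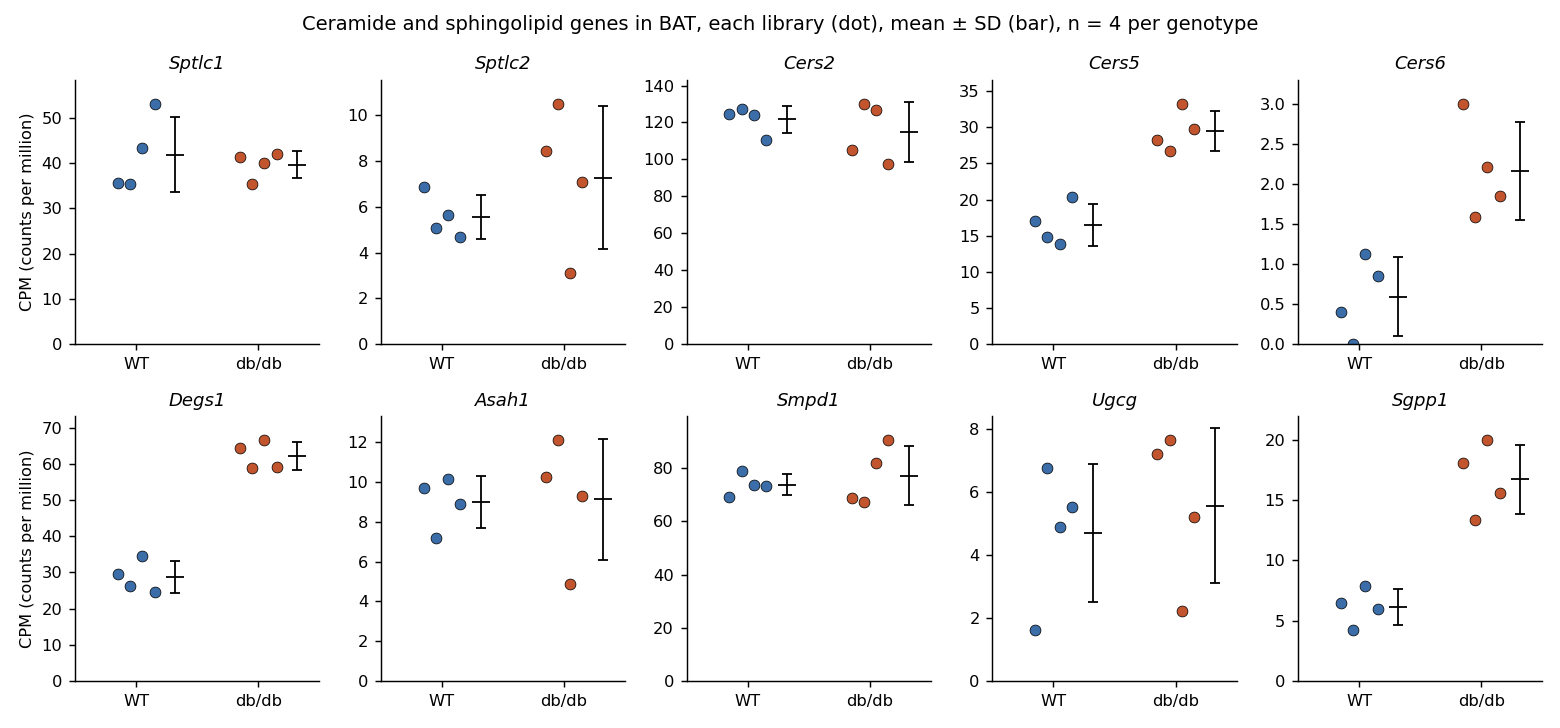
Level of each of the 10 members in CPM (y axes, each starting at 0) in the 4 WT and 4 db/db libraries (dots), with mean ± SD. The db/db libraries lie above every WT library in Cers5, Cers6, Degs1 and Sgpp1, and the genotypes overlap in the other 6 members.

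Serine palmitoyltransferase opens the pathway, and its 2 core subunits gave no call. Sptlc1 (ENSMUSG00000021468, chromosome 13, 53332748 to 53377397, mm10) had 41.8 ± 8.31 CPM in WT and 39.6 ± 3.0 CPM in db/db (SD, n = 4 each). Its log2 fold change was −0.08 (95% interval −0.44 to 0.28, edgeR adjusted p 0.775). For Sptlc2 (ENSMUSG00000021036, chromosome 12, 87305058 to 87388355), the catalytic subunit, the WT libraries held 6.88, 5.06, 5.64 and 4.67 CPM and the db/db libraries 8.42, 10.5, 3.10 and 7.07 CPM. The db/db values of Sptlc2 thus lay on both sides of the WT range, with db/db replicate 3 lowest of all. The log2 fold change of Sptlc2 was 0.41 (95% interval −0.38 to 1.19, edgeR adjusted p 0.452), so a change of up to about this upper bound could not be told from none at 7 to 33 counts per library.

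The ceramide synthases differed among themselves. Cers2 (ENSMUSG00000015714, chromosome 3, 95314791 to 95323599), which prefers very long acyl chains, had 122 ± 7.34 CPM in WT and 115 ± 16.1 CPM in db/db (SD, n = 4 each). Its log2 fold change was −0.08 (95% interval −0.37 to 0.20, edgeR adjusted p 0.694). Exons of Cers2 overlap Setdb1 and an antisense RNA gene on the other strand, and counting is not stated to use strand, so its counts are uncertain. Cers5 (ENSMUSG00000023021, chromosome 15, 99734881 to 99772885), which prefers palmitoyl chains, held 17.0, 14.8, 13.9 and 20.4 CPM in the WT and 28.3, 26.7, 33.2 and 29.8 CPM in the db/db libraries. Every db/db library lay above every WT library. Cers5 rose by a log2 fold change of 0.83 (SE 0.19, edgeR adjusted p 0.00369), from a mean of 16.5 ± 2.89 to 29.5 ± 2.79 CPM (SD, n = 4 each).

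Cers6 (ENSMUSG00000027035, chromosome 2, 68861441 to 69114282), the other ceramide synthase with a preference for palmitoyl chains, was near the detection floor and did not pass the filter. Its WT libraries held 1, 0, 3 and 2 counts and its db/db libraries 10, 5, 5 and 5 counts, so the genotypes did not overlap. The ratio of the summed counts per effective library size was 3.60 (exact 95% interval 1.44 to 10.7, counting error only). When the filter was lowered to 1 count in all, its log2 fold change was 1.72 (SE 0.91, edgeR adjusted p 0.191), and DESeq2 gave an adjusted p of 0.172, so Cers6 was not called by either tool. Cers4, named here after its values were seen, is another ceramide synthase and had a log2 fold change of 0.67 (SE 0.27, edgeR adjusted p 0.0766), while Cers1 and Cers3 had 0 counts in every library.

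Degs1 (ENSMUSG00000038633, chromosome 1, 182275772 to 182282804) encodes the dihydroceramide desaturase, which places the double bond that turns dihydroceramide into ceramide. It held 29.5, 26.2, 34.6 and 24.6 CPM in the WT libraries and 64.4, 58.9, 66.5 and 59.1 CPM in the db/db libraries. The lowest db/db library lay well above the highest WT library, and the spread within each genotype was small. Degs1 rose by a log2 fold change of 1.11 (SE 0.16, edgeR adjusted p 5.54e-05), that is 2.16-fold, from 28.7 ± 4.41 CPM to 62.2 ± 3.81 CPM (SD, n = 4 each).

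The lysosomal enzymes that release and cleave ceramide gave no call. Smpd1 (ENSMUSG00000037049, chromosome 7, 105554360 to 105558389), the acid sphingomyelinase, had 73.8 ± 3.98 CPM in WT and 77.1 ± 11.1 CPM in db/db (SD, n = 4 each), with a log2 fold change of 0.06 (95% interval −0.24 to 0.36, edgeR adjusted p 0.793). Asah1 (ENSMUSG00000031591, chromosome 8, 41340197 to 41374773), the acid ceramidase, held 9.71, 7.17, 10.1 and 8.91 CPM in the WT and 10.2, 12.1, 4.88 and 9.30 CPM in the db/db libraries. Here too db/db replicate 3 was lowest, and the log2 fold change was 0.04 (95% interval −0.60 to 0.68, edgeR adjusted p 0.941). The interval of Smpd1 leaves room for changes of less than 1.5-fold only, whereas that of Asah1, at 11 to 38 counts per library, also includes larger ones.

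Ugcg (ENSMUSG00000028381, chromosome 4, 59189257 to 59222833) encodes the enzyme that commits ceramide to glycosphingolipids. It held 1.62, 6.75, 4.88 and 5.52 CPM in the WT and 7.22, 7.64, 2.22 and 5.21 CPM in the db/db libraries, so each genotype had a library near the detection floor and the genotypes overlapped. The log2 fold change was 0.28 (95% interval −0.66 to 1.22, edgeR adjusted p 0.686), and no difference was detected, at 4 to 24 counts per library.

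Sgpp1 (ENSMUSG00000021054, chromosome 12, 75714249 to 75735729) encodes a phosphatase of the endoplasmic reticulum that returns sphingosine-1-phosphate to sphingosine, which can be used for ceramide again. The WT libraries held 6.47, 4.22, 7.89 and 5.94 CPM and the db/db libraries 18.0, 13.4, 19.9 and 15.6 CPM. Every db/db library lay above every WT library. Sgpp1 rose by a log2 fold change of 1.43 (SE 0.27, edgeR adjusted p 0.000739), that is 2.70-fold and the largest change among the 9 members tested, from 6.13 ± 1.52 to 16.75 ± 2.87 CPM (SD, n = 4 each).

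The rises of Degs1, Cers5 and Sgpp1 passed the test in each of the 8 fits that left out 1 library. With the mean level of 14 skeletal muscle markers as a covariate, Degs1 still passed (log2 fold change 1.15, edgeR adjusted p 0.0182), while Cers5 (0.71, adjusted p 0.258) and Sgpp1 (1.30, adjusted p 0.128) kept their direction without passing. The summed muscle level was 502 to 1787 CPM in WT and 2452 to 12346 CPM in db/db libraries, so the covariate moves with genotype. The plot of the alternatives shows the values of each member under it.

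**Figure D2:**
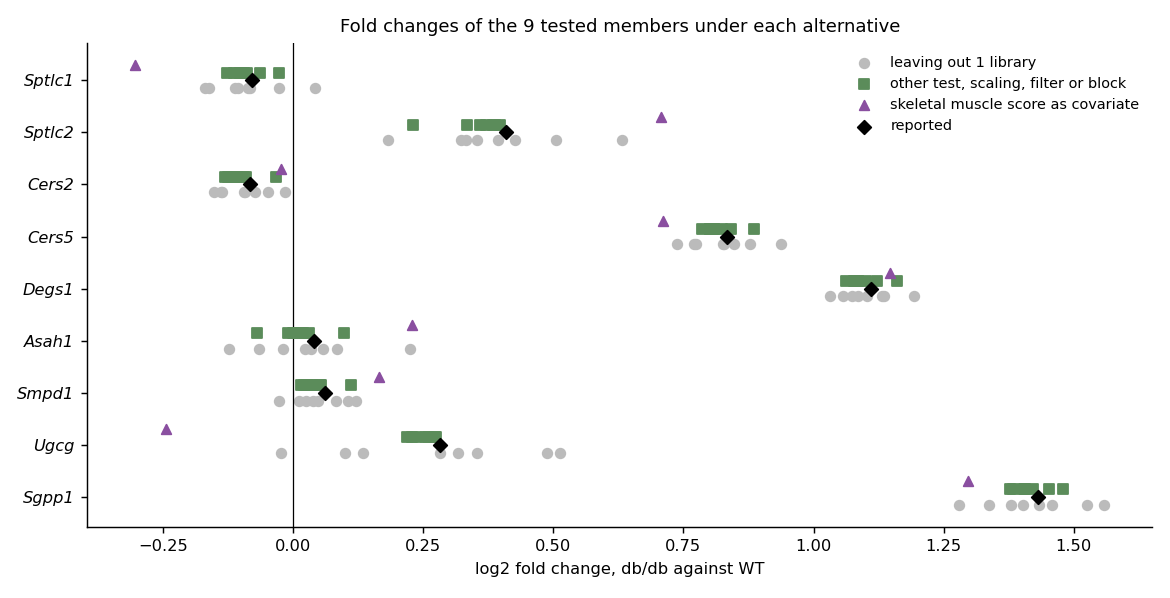
Log2 fold change (x axis, db/db against WT) of the 9 tested members as reported (diamonds), without each library (circles), under another test, scaling, filter or replicate block (squares) and with a skeletal muscle score added to the model (triangles). Degs1, Cers5 and Sgpp1 stay above 0 throughout, and Sptlc1, Asah1, Smpd1 and Ugcg have values on both sides of 0.

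To place the members in their pathway, 63 other genes of sphingolipid metabolism were examined. Of these, 7 had 0 counts in every library, 40 passed the filter, 13 rose, 2 fell and 25 of those tested were not called. Of the 40, 9 passed the filter through the db/db libraries alone, a route that favors genes that are higher there, and 5 of the 13 that rose were among them (Sgms2, S1pr2, B4galt6, Cerk and Smpd3). Without these, 8 of 31 were higher, or 25.8%, where 11.6% of all genes so limited were higher, and 2 of 31 were lower, or 6.45%, against 13.2%. The number that rose was 12 or 13 in the fits without 1 library but 1 with the muscle covariate, which left Sgms2. The plot of fold changes shows members and called pathway genes together.

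**Figure D3:**
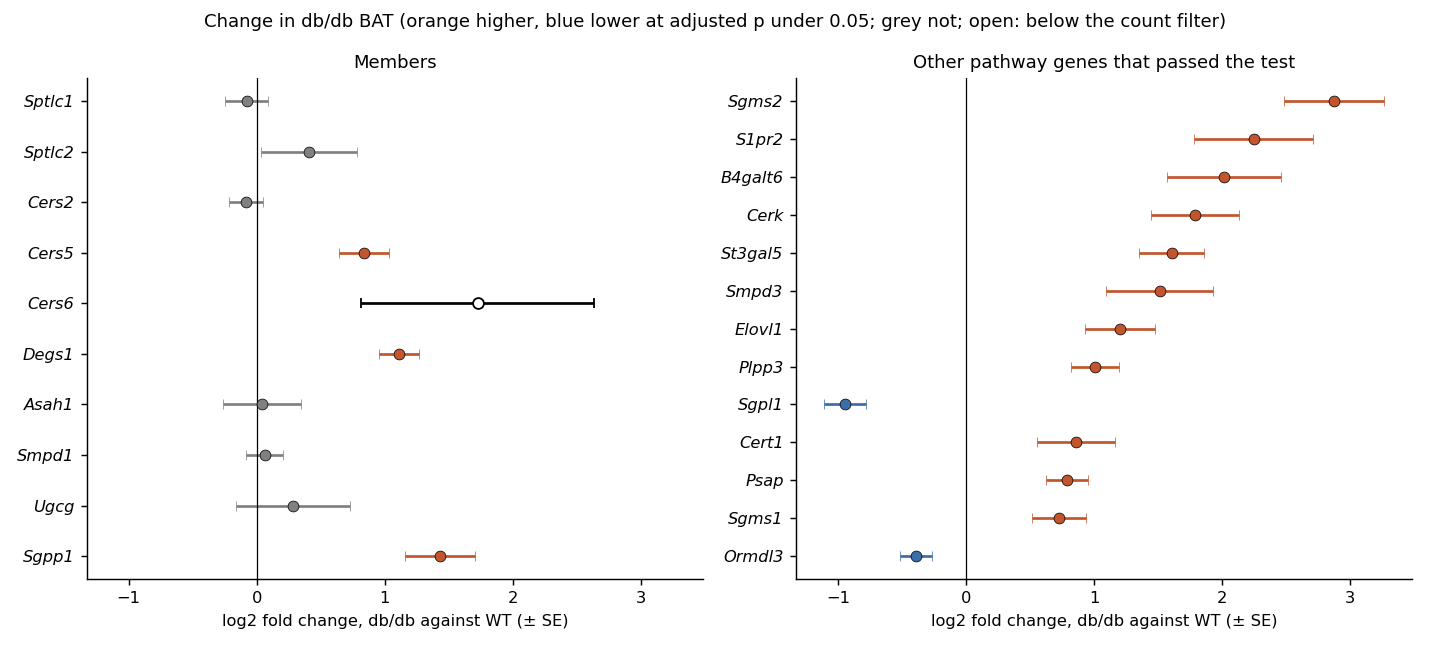
Log2 fold change of db/db against WT (x axis, ± SE, n = 4 each) for the members (left) and for 13 of the 15 other pathway genes that passed an adjusted p of 0.05 (right); Cers6 is open because it did not pass the count filter. Of the genes on the right, Sgpl1 and Ormdl3 lie below 0 and the other 11 above it.

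Of 7 other genes for subunits and regulators of serine palmitoyltransferase and for the ketoreductase of the next step, 5 were tested, 1 fell and 0 rose. Ormdl3, which encodes an inhibitor of the enzyme that senses ceramide, had 268 ± 20.4 CPM in WT and 204 ± 18.2 CPM in db/db (SD over 4 libraries each), a log2 change of −0.39 with an SE of 0.13 (adjusted p 0.0259 in edgeR). It was not called in 5 of the 8 fits without 1 library, those without WT replicate 2, 3 or 4 or db/db replicate 1 or 2, with adjusted p of at most 0.0658 in each, nor with the muscle covariate (−0.32, adjusted p 0.472).

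Of 3 genes for sphingomyelin synthases and a relative, 2 rose, and Sgms2 passed the filter through the db/db libraries alone, which favors a higher value there. Sgms2, the enzyme of the plasma membrane, held 3, 3, 4 and 3 counts in the WT and 33, 37, 24 and 20 counts in the db/db libraries. Every db/db library was several times above the WT libraries, which sat at the detection floor, and its fitted log2 fold change was 2.87 (SE 0.39, edgeR adjusted p 3.42e-05). Sgms1, the enzyme of the Golgi, rose by 0.72 on a log2 scale, with an SE of 0.21 and an adjusted p of 0.0151 in edgeR, and its adjusted p was 0.0561 without WT replicate 3. Its relative Samd8, which makes ceramide phosphoethanolamine and was named after its values were seen, had a log2 fold change of −0.08. Of 4 other sphingomyelinases and relatives tested, the neutral sphingomyelinase gene Smpd3 rose (log2 fold change 1.51, SE 0.42, edgeR adjusted p 0.0116), against 0.06 for the acid enzyme Smpd1. Smpd3 also passed the filter through the db/db libraries alone. With the muscle covariate Sgms2 passed (2.72, adjusted p 0.0159), while Sgms1 (0.52, adjusted p 0.464) and Smpd3 (1.86, adjusted p 0.139) were not called.

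Of 4 genes for ceramide transfer and phosphorylation, 3 were tested and 2 rose, of which Cerk passed the filter through the db/db libraries alone. Cerk, which encodes ceramide kinase, rose from 4.52 ± 2.40 to 15.6 ± 4.23 CPM (SD over 4 libraries each), a log2 change of 1.79 with an SE of 0.35 (adjusted p 0.000805 in edgeR). Cert1, whose protein carries ceramide from the endoplasmic reticulum to the Golgi for sphingomyelin synthesis, rose by 0.86 on a log2 scale, with an SE of 0.30 and an adjusted p of 0.0438 in edgeR, but overlapped between the genotypes. Its adjusted p was 0.0811 with DESeq2, 0.0528 with scaling by library total, 0.0516 with replicate number as a block and 0.0505 with limma on the deposited values, and it was not called in the fits without WT replicate 1 or 2 or db/db replicate 2 or 3, where it reached at most 0.159. With the muscle covariate neither was called, with Cerk at 1.36 (adjusted p 0.141) and Cert1 at 0.76 (adjusted p 0.472).

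Downstream of Ugcg, 2 of 6 genes for glycosphingolipid synthesis were tested and both rose, but B4galt6 passed the filter through the db/db libraries alone, which favors a higher value there. St3gal5, which encodes the synthase of the ganglioside GM3, held 10.9, 18.6, 23.3 and 34.4 CPM in the WT and 78.2, 58.2, 77.1 and 51.7 CPM in the db/db libraries, which did not overlap (log2 fold change 1.60, SE 0.25, edgeR adjusted p 0.000133). B4galt6, a lactosylceramide synthase, rose by 2.01 on a log2 scale, with an SE of 0.44 and an adjusted p of 0.00238 in edgeR, from 4 to 8 counts per WT library to 15 to 53 counts per db/db library. Of 10 tested genes of glycosphingolipid breakdown, 3 rose, Psap among them. Psap, the precursor of the saposins that present lipids to lysosomal hydrolases, rose from 529 ± 121 to 914 ± 79.1 CPM (SD over 4 libraries each), a log2 change of 0.79 with an SE of 0.16 (adjusted p 0.00129 in edgeR). With the muscle covariate, St3gal5 was at 0.75 (adjusted p 0.199), B4galt6 at 0.72 (adjusted p 0.632) and Psap at 0.46 (adjusted p 0.350), so these calls were lost.

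Of 8 other genes of sphingosine-1-phosphate metabolism, 6 were tested, 1 fell, 1 rose and 4 were not called, among them the phosphatase genes Plpp1 (log2 fold change 0.17, edgeR adjusted p 0.740) and Plpp2 (−0.17, adjusted p 0.780), named after their values were seen. Sgpl1, the lyase that breaks it down irreversibly and so drains the pathway, held 83.0, 115, 133 and 125 CPM in the WT and 65.3, 63.3, 48.3 and 59.5 CPM in the db/db libraries. Every db/db library lay below every WT library, and Sgpl1 fell by 0.94 on a log2 scale, with an SE of 0.16 and an adjusted p of 0.00028 in edgeR. With the muscle covariate Sgpl1 passed (adjusted p 0.0108). Plpp3, a lipid phosphate phosphatase that acts at the cell surface, rose by 1.01 (SE 0.19, edgeR adjusted p 0.000566). The receptor gene S1pr2 rose by 2.24 (SE 0.47, edgeR adjusted p 0.00146), from 3 to 6 counts per WT library to 13 to 36 counts per db/db library. S1pr2 passed the filter through the db/db libraries alone, which favors a higher value there, and was not tested without db/db replicate 1 or 4. Of 3 elongase genes 2 were tested, and Elovl6, named after its values were seen, had a log2 fold change of −0.50 (edgeR adjusted p 0.0654). Elovl1, an elongase that supplies very long acyl chains of the kind used by Cers2, rose by 1.20 (SE 0.27, edgeR adjusted p 0.00289). Plpp3, S1pr2 and Elovl1 were not called with the muscle covariate, where Plpp3 was at 0.75 (adjusted p 0.198), S1pr2 at 1.25 (adjusted p 0.399) and Elovl1 at 1.21 (adjusted p 0.126). Exons of Cers4, Plpp1, Sgms1, Smpd3, Elovl1, Elovl6, Cerk and Cert1 overlap genes annotated on the other strand, so their counts are uncertain, although the partners of Cerk and Cert1 had 0 counts.

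Ratios of 2 genes inside a library do not depend on the scaling between libraries, and they were compared by exact two-sided permutation tests, in which the smallest possible p is 0.0286. Of 4 ratios computed 3 are given, with p-values adjusted over all 4. The log2 count ratio of Sgpl1 to Sgpp1 was 3.64, 4.70, 4.05 and 4.35 in the WT and 1.85, 2.23, 1.27 and 1.92 in the db/db libraries. The libraries of the genotypes lay far apart, and the ratio was 5.16-fold higher in WT (exact permutation p 0.0286, adjusted 0.0381). The log2 ratio of Asah1 to Degs1 was −1.58, −1.84, −1.75 and −1.44 in the WT and −2.64, −2.27, −3.71 and −2.64 in the db/db libraries. It was 2.24-fold higher in WT without overlap (exact permutation p 0.0286, adjusted 0.0381), so these 2 genes did not change alike.

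The log2 ratio of Cers6 to Cers2 had a WT mean of −7.55 ± 1.23 and a mean of −5.64 ± 0.477 in db/db libraries (SD over 4 libraries each), with a p of 0.0286 by exact permutation and 0.0381 after adjustment, without overlap. This ratio rests on 0 to 3 counts of Cers6 per WT library. The plot of the ratios shows each library.

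**Figure D4:**
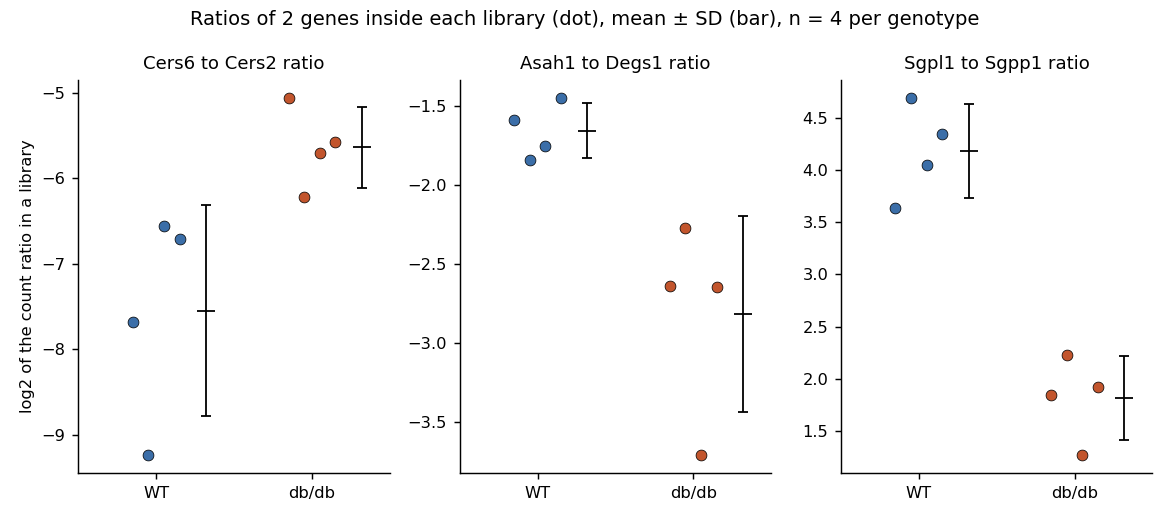
Log2 of the ratio of the counts of 2 genes in each library (y axis, 0.5 added to both counts), with mean ± SD, for 4 WT and 4 db/db libraries. The genotypes do not overlap in the ratios of Cers6 to Cers2, Asah1 to Degs1 and Sgpl1 to Sgpp1.

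Markers of several cell types differed between the same libraries. Of 12 macrophage markers, 11 were tested and 10 rose, and their summed level was 162 to 221 CPM in WT and 801 to 1392 CPM in db/db libraries, with Trem2 at 0 or 1 count in WT. All 6 fibroblast markers tested rose, with summed levels of 494 to 622 CPM in WT and 1007 to 2086 CPM in db/db libraries. Of 14 skeletal muscle markers 13 rose, of 6 endothelial markers 3 fell and 0 rose, and of 6 brown adipocyte markers tested 5 fell. Of 6 markers of adipocytes in general 2 rose and 0 fell, and all 6 T cell markers were below the filter. Of the markers that rose, 3 of macrophages, 1 of fibroblasts and 1 of skeletal muscle passed the filter through the db/db libraries alone, and 15.8% of all genes tested were higher and 11.9% lower. In bulk tissue, more or fewer cells of a type and more or less RNA per cell cannot be told apart, and the part of macrophages, fibroblasts or endothelial cells in the changes of Degs1, Cers5, Sgpp1, Sgpl1 and the other genes named was not tested. The plot of the marker sums shows the 8 libraries.

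**Figure D5:**
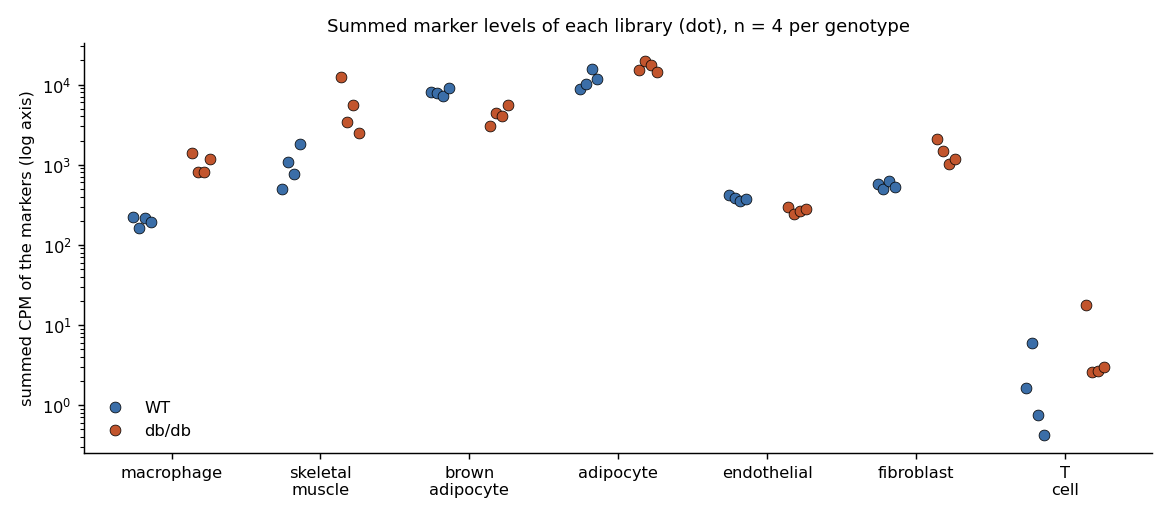
Summed CPM of 7 marker lists (y axis, log scale) in the 4 WT and 4 db/db libraries (dots). Macrophage, skeletal muscle and fibroblast sums are higher in every db/db library than in any WT library, and brown adipocyte and endothelial sums are lower.

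Within db/db, the macrophage sum was highest in db/db replicate 1 (1392 CPM) and lowest in db/db replicates 2 and 3 (802 and 801 CPM), whereas Degs1, Cers5 and Sgpp1 were each highest in db/db replicate 3 and lowest in db/db replicate 2. Over the 10 members, db/db replicate 2 was the lowest db/db library in 6 and the highest in the other 4. Sptlc2, Asah1 and Ugcg were lowest of the 4 db/db libraries in db/db replicate 3. With 4 libraries of a genotype, these orders are given as descriptions only.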

How the data were processed

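BAT of 4 WT and 4 db/db mice was profiled by single-end mRNA sequencing with a commercial service. Per the method text of the study, the authors trimmed reads with bbduk, aligned them to mm10 with STAR and counted them per gene with HTSeq-count, whereas the submitters' processing notes and the list of software in the study name Trimmomatic and HISAT2. Which trimmer and aligner were used is therefore uncertain. Both name DESeq2 for the authors' own comparisons. Use of strand and collapsing of PCR copies are not stated, so the exact interval for Cers6 and the floor of 3 counts cover counting error only. The deposited raw counts were analysed. The deposited log2 values were found to be counts multiplied by 1 factor per sample, increased by 1 and logged, and served as an alternative. The sample sheet was not used.

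Of 31053 genes, 31011 had an entry in GENCODE M21 (same build); the others held at most 0.00213% of any library. Genes were filtered with filterByExpr (minimum count 10, minimum total 15), scaled by TMM and tested for genotype in edgeR 4.0.16 (R 4.3.3) by its quasi-likelihood method, with Benjamini-Hochberg adjustment over 9264 genes at 0.05. Standard errors were derived from the F statistic. CPM are counts scaled by the total over filtered genes and the TMM factor. No 2 libraries were identical, and replicates differed by more than counting error (chi-square per degree of freedom at least 3.99). Total counts were 2374079 to 3240074. Levels were not compared between genes.

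Alternatives were DESeq2 1.42.0, limma 3.58.1, other scalings and filters, the replicate number as a block, a muscle covariate and leaving out each sample. The same replicate numbers occur in both genotypes, and deviations of same-numbered libraries correlated between −0.0781 and 0.0490, so the numbers were not taken as pairs. The procedure was tested on simulated data. The members and gene lists were chosen with earlier results of these data known. Named were all members, the pathway genes with an adjusted p under 0.05 (up to 20) and both genes of each ratio; 2 of these pathway genes and 1 ratio are not reported here. Figures were drawn with matplotlib 3.10.9.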

Additional observations from a re-analysis of the deposited data

Results flagged for a closer look

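In each genotype, the 10 members, the pathway genes that passed the test and the ratios were searched with Dixon's 95% critical value for a single library set apart from the rest. Of 58 sets of 4 libraries, 2 stood out, where chance gives about 2.9. Smpd3 in WT replicate 1 was at 5.67 CPM (14 counts) against 1.70 to 2.25 CPM in the other WT libraries, which lies under its lowest db/db value of 5.76 CPM. S1pr2 in WT replicate 3 was at 2.25 CPM (6 counts) against 1.21 to 1.27 CPM in the other WT libraries. No member stood out.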

How the results depend on the processing

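The counts reported for Degs1, Cers5 and Sgpp1 and for the pathway depended most on the skeletal muscle covariate. With it, 616 genes were called in place of 2568, 1 member was higher in place of 3, and 1 pathway gene was higher and 1 lower in place of 13 and 2. A minimum of 10 counts in each of the samples gave 8 pathway genes higher, since it removes genes near 0 in WT. Other alternatives left these counts within 1.5 times, with 2500 to 3170 genes called (2018 with that minimum), and gave 0 members lower. Blocking on the replicate number left 2557 genes called, and the only named gene to lose its call was Cert1.

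Without each library in turn, 2236 to 2483 genes were called, 3 members and 12 to 13 pathway genes were higher, and 1 to 2 pathway genes were lower. The differences in log2 ratio, db/db minus WT, then ran from 1.35 to 2.24 for Cers6 to Cers2. They ran from −1.34 to −0.86 for Asah1 to Degs1 and from −2.55 to −2.19 for Sgpl1 to Sgpp1. Their adjusted exact permutation p ran from 0.0571 to 0.114. None of these ratios passed with 7 libraries, although all kept their sign. With 1 count added to each gene, these 3 passed as before (adjusted 0.0381).

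Changes of sign occurred only in members that were not called. Without 1 library, Sptlc1 ran from −0.17 to 0.0428 (above 0 without WT replicate 4), Smpd1 from −0.0278 to 0.12 (below 0 without db/db replicate 4), Ugcg from −0.024 to 0.51 (below 0 without WT replicate 1) and Asah1 from −0.12 to 0.22 (below 0 without WT replicate 2 or db/db replicate 1 or 2). Ugcg was at −0.25 with the muscle covariate, and Asah1 at −0.0094 with all genes with at least 1 count and at −0.0692 with limma on the deposited values. The causes were not tested. Counts per library were 0 to 10 for Cers6 and 4 to 24 for Ugcg.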
